A study of Mus musculus with 9 samples.

Results

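The lipid droplet proteins described here are encoded by 10 genes, which were chosen by name: Plin2, Plin3, Plin4, Plin5, Cidea, Cideb, Cidec, G0s2, Pnpla2 and Hilpda. All 10 were found among the 16755 genes of the deposited table. They were measured by RNA sequencing of polyadenylated RNA from male C57BL/6 mice in 3 groups of 3. The Scd2f/f group carried Scd2, a stearoyl-CoA desaturase gene, with an exon flanked by loxP sites. It had been given diethyl nitrosamine (DEN), a liver carcinogen, in a dose of 10 mg/kg when 2 weeks old. From an age of 6 weeks it was fed Western alcohol diet (WAD), which supplies ethanol together with cholesterol and lard, for 4 months by the labels and for longer by the methods. The Scd2f/f;Col1a1-Cre group (Scd2f/f;CC) received the same regimen and in addition carried a Cre transgene under the Col1a1 promoter, which is active in hepatic stellate cells and portal fibroblasts and not in hepatocytes. The control group was untreated Scd2f/f mice, whose age the sources used here give only within a range for all animals of the study. The loxP-flanked Scd2 gene was thus shared by every group. The sample labels name the tissue liver, and the study's results call that of the treated mice tumor-adjacent liver (TAL).

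A lipid droplet is a store of neutral lipid, mainly triglyceride and cholesteryl ester, enclosed by a single layer of phospholipid. Perilipins coat this surface and govern the access of lipases. CIDE proteins gather where droplets touch and pass lipid from smaller to larger droplets, while adipose triglyceride lipase, encoded by Pnpla2, releases fatty acids from the stored triglyceride. In liver, droplets swell in hepatocytes during steatosis, and quiescent hepatic stellate cells keep vitamin A in droplets of their own.

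For each gene, the value available was the mean of a group, a least-squares mean of upper-quartile normalized counts made by the authors and given with 3 significant digits. Over all genes these means ran from 0.04 to 76300 in untreated liver, from 0.0348 to 28200 in TAL of Scd2f/f mice and from 0.0349 to 51000 in TAL of Scd2f/f;CC mice, with an upper quartile of 15.4 to 15.5. Only these means were used, not the values of each mouse. Hence no spread between mice could be set beside a difference, no test was run, the depth of the samples is unknown, and whether a difference exceeds the spread between mice was not assessed here. Scd2 itself had means of 2.46 in untreated liver, 6.47 in TAL of Scd2f/f mice and 1.87 in TAL of Scd2f/f;CC mice, and Col1a1 had means of 4.69, 19.6 and 4.51.

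The first comparison, Scd2f/f TAL against untreated liver, set mice given the DEN + WAD regimen against mice without it. The treated tissue was also tumor-adjacent, and the age of the untreated mice is known only within a range. Skeletal muscle markers, given below, were higher in untreated liver. These differences cannot be told apart from the regimen here. All 10 genes had a higher mean in Scd2f/f TAL, where 53.7% of all genes were higher by any amount. At least 2-fold higher were 3 of the 10, Plin2, Plin4 and Cidea, against 9.37% of all genes. Cidea and Hilpda averaged below 1 over the groups, and of the other 8 genes 2 were at least 2-fold higher, Plin2 and Plin4, against 6.40% of the 11784 genes averaging at least 1 over the groups. None of the 10 was at least 2-fold lower, as 4.69% of all genes were. At least 1.5-fold apart in either direction were 6 of the 10, against 28.5% of all genes, and at least 4-fold apart were 2, Plin4 and Cidea, against 3.65%. The median log2 ratio was 0.65 over the 10 genes and 0.04 over all genes.

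The second comparison, Scd2f/f;CC compared with Scd2f/f TAL, addressed the loss of Scd2 in Col1a1-expressing cells. Only the Scd2f/f;CC mice carried Cre. The paper also reports microscopic tumors within TAL and markedly diminished tumors in Scd2f/f;CC mice. Cre itself and the amount of tumor cannot be told apart from the loss of Scd2 here. Of the 10 genes, 7 had a lower and 3 a higher mean in Scd2f/f;CC TAL, and 49.6% of all genes were lower by any amount. At least 2-fold lower was 1 of the 10, Cidec, against 4.07% of all genes, and 0 were at least 2-fold higher, against 1.82% of all genes. Among genes averaging at least 1, these were 1 of 8 against 1.54% for the lower direction. At least 1.5-fold apart in either direction were 2 of the 10, Cidec and Plin4, against 15.5% of all genes, and 0 were at least 4-fold apart, against 0.853%. The median log2 ratio was -0.19 over the 10 genes and 0.00 over all genes.

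**Figure D1:**
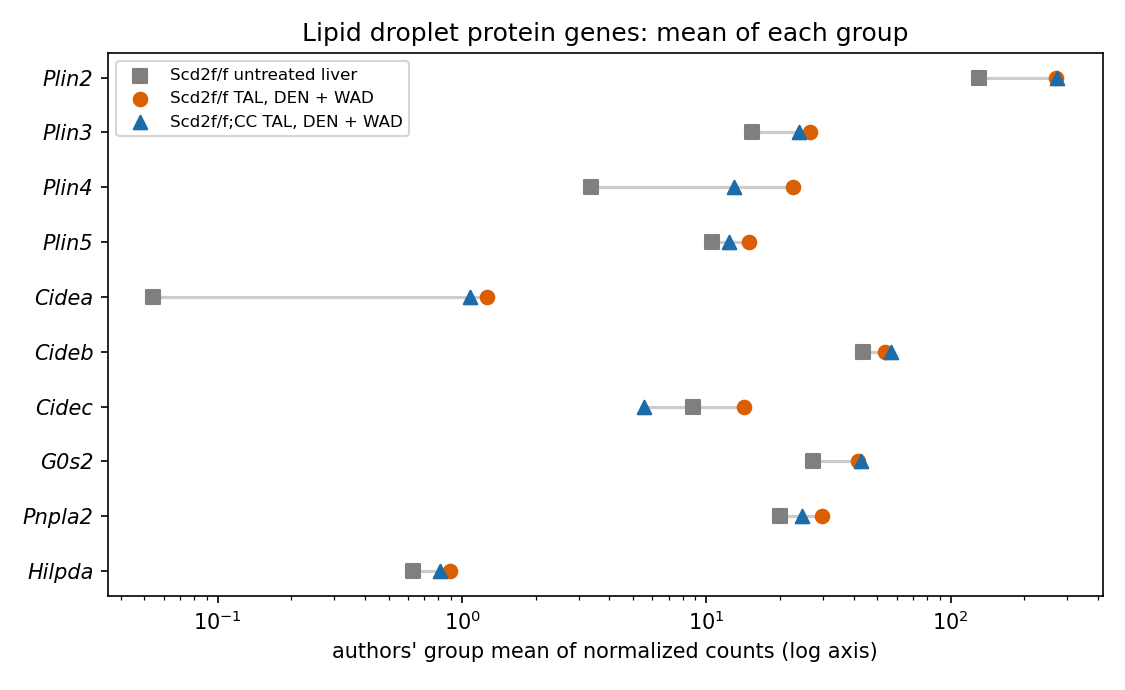
Group means of the 10 lipid droplet genes (authors' normalized counts, log axis) in untreated Scd2f/f liver (squares), Scd2f/f TAL (circles) and Scd2f/f;CC TAL (triangles); each point is the authors' mean of 3 mice and no error is given. The square lies left of the circle for every gene, and for Cidec the triangle lies left of both, at 5.56 against 8.85 and 14.3.

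Among the perilipins, Plin2 encodes the main coat protein of liver droplets, which is degraded when it is not bound to lipid. Plin2 (ENSMUSG00000028494) maps to chromosome 4 (minus strand) from 86648386 to 86670060 in mm10. Its mean was 130.0 in untreated liver, 269 in TAL of Scd2f/f mice and 273 in TAL of Scd2f/f;CC mice. Both treated groups were thus about as high as each other and above untreated liver, with a ratio of 2.07 for Scd2f/f TAL to untreated liver and 1.01 for Scd2f/f;CC to Scd2f/f TAL. A ratio as high as the first was seen for 8.78% of all genes.

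Plin4, whose product binds droplets through a long run of amphipathic repeats and is best known from adipose tissue and muscle, maps to chromosome 17 (minus strand) from 56100591 to 56109803. Its mean was 3.36 in untreated liver, 22.6 in TAL of Scd2f/f mice and 13.0 in TAL of Scd2f/f;CC mice. Scd2f/f TAL was 6.73-fold above untreated liver, a ratio that 0.567% of all genes matched or exceeded. Scd2f/f;CC TAL lay between these groups, 1.74-fold below Scd2f/f TAL and 3.87-fold above untreated liver. Of all genes, 6.21% were as low or lower in the comparison of Scd2f/f;CC with Scd2f/f TAL, or 2.61% of genes averaging at least 1.

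Plin5, which couples droplets to mitochondria in tissues that oxidize fatty acids, is the neighbour of Plin4 on the same strand, 1797 bp away, from 56111601 to 56117596. Its means were 10.5, 15.0 and 12.4 in untreated liver, Scd2f/f TAL and Scd2f/f;CC TAL. The ratio of Scd2f/f TAL to untreated liver was 1.43, far smaller than that of the adjacent Plin4, and 19.4% of all genes had one as high. Plin3, a broadly expressed coat protein of small, newly formed droplets, lies 161365 bp beyond Plin5, from 56278962 to 56290511. Its means were 15.4, 26.6 and 24.0, with a ratio of 1.73 for Scd2f/f TAL to untreated liver and 0.902 for Scd2f/f;CC to Scd2f/f TAL. The perilipins were therefore ordered Plin4, Plin2, Plin3 and Plin5 by their ratio in the first comparison.

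The 250 bases before the transcription start are shown for the perilipins with the largest ratios and for Cidec, the gene with the lowest ratio between the genotypes, so that the DNA next to these starts can be compared. The sequences are from RefSeq on GRCm38.p6, 5′ to 3′ on the strand of the gene, at chr4:86670060-86670309 for Plin2, chr17:56109783-56110032 for Plin4 and chr6:113435761-113436010 for Cidec, all on the minus strand. Capitals mark any match, on either strand, to the E-box CACGTG, the nuclear receptor half-site AGGTCA, the TATA core TATAA or the GC box GGGCGG, motifs of which none holds another.
Plin2: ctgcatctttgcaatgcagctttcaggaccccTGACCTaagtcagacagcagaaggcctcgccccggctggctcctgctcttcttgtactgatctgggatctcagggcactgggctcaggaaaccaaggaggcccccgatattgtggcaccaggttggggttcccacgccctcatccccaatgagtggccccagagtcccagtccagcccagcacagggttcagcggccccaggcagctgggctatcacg
Plin4: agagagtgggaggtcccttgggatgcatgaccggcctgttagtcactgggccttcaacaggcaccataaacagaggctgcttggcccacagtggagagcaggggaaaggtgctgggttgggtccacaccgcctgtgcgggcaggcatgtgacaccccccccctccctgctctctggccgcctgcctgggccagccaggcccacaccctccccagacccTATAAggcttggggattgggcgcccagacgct
Cidec: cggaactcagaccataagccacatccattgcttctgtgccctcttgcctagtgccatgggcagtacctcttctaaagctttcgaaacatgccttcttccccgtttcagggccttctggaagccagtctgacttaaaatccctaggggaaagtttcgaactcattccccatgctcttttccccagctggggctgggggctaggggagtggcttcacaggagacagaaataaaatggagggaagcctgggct
In Plin2 the match is a half-site, read as TGACCT, that begins 218 bases before the start. In Plin4 it is a TATA core that begins 32 bases before the RefSeq start, and Cidec has no match. The RefSeq start of Plin4 lies inside the gene as placed above. Of the printed windows, 21 bases are exon in GENCODE M21 for Plin4, 1 for Plin2 and 0 for Cidec. Plin5 also has a TATA core, 27 bases before one of its RefSeq starts, and a half-site 170 bases before that start. This start, too, lies inside the gene as placed above, and 48 bases of its window are exon in GENCODE M21. The window at the other Plin5 start has neither motif. Windows of other genes also reach into exons, as for G0s2 with 120 such bases. RefSeq starts of 9 of the 10 genes were matched, 12 windows in all, and Cidea had no entry. A TATA core was in 4 of these 12 windows and in 22.8% of all 32851 promoter windows of this length, and a half-site was in 2 and in 14.0%. A GC box was in 7 windows and in 32.7% of all, and an E-box in 0 and in 6.02%. These counts describe the letters of the windows and were not tested.

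Of the CIDE genes, Cidec showed the widest difference between the genotypes of any of the 10 genes. Cidec encodes the protein that enlarges droplets in white fat and in fatty liver. It maps to chromosome 6 (minus strand) from 113424634 to 113435760. The mean of Cidec was 8.85 in untreated liver, 14.3 in TAL of Scd2f/f mice and 5.56 in TAL of Scd2f/f;CC mice. It was 1.62-fold above untreated liver in Scd2f/f TAL and 2.57-fold below Scd2f/f TAL in Scd2f/f;CC TAL, and the Scd2f/f;CC mean was 1.59-fold below untreated liver. A ratio of Scd2f/f;CC TAL to untreated liver as low as that of Cidec was seen for 9.10% of all genes. None of the other 9 genes had a mean in Scd2f/f;CC TAL below that of untreated liver. The median log2 ratio over all genes was 0.05 in this comparison, and the share lower by any amount was not counted. A ratio of Scd2f/f;CC to Scd2f/f TAL as low as that of Cidec was seen for 2.08% of all genes and for 0.653% of genes averaging at least 1.

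Cidea, a relative of Cidec that is abundant in brown fat and is known to appear in steatotic liver, had a mean of 0.0544 in untreated liver, 1.27 in TAL of Scd2f/f mice and 1.08 in TAL of Scd2f/f;CC mice. The treated groups were 23.3-fold and 19.9-fold above untreated liver, but the untreated mean was close to 0.04, the lowest of any gene in that group, and only 1.17% of genes had a lower one. The size of this ratio therefore rests on a value near the bottom of the scale. With a pseudocount of 1 added to every mean, the log2 ratio of Cidea for Scd2f/f TAL to untreated liver went from 4.55 to 1.11. The ratio of Scd2f/f;CC to Scd2f/f TAL was 0.850.

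Cideb, the CIDE protein of normal hepatocytes, where it also serves the lipidation of very low density lipoprotein, maps to chromosome 14 (minus strand) from 55754045 to 55758458. Its means were 43.6, 53.6 and 57.2, and its ratio of 1.23 for Scd2f/f TAL to untreated liver was the lowest of the 10 genes. The exons of Cideb in GENCODE M21 share 1136 bp, 76.3% of their length, with exons of Nop9 on the other strand. The paper's methods do not state whether the libraries kept the strand. If they did not, reads of these genes could not be told apart by strand in the shared part. How the authors' quantification divided such reads was not examined. Nop9 had means of 11.5, 10.6 and 10.5. Cideb lies 2969 bp from Ltb4r2, the leukotriene receptor gene that the study is about. Ltb4r2 had low means of 0.412 in untreated liver, 0.308 in TAL of Scd2f/f mice and 0.58 in TAL of Scd2f/f;CC mice. The paper reports less LTB4R2 protein in Scd2f/f;CC TAL by immunoblot and less Ltb4r2 mRNA in Scd2f/f;CC tumors by qPCR. It states that its RNA sequencing did not detect this reduction.

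**Figure D2:**
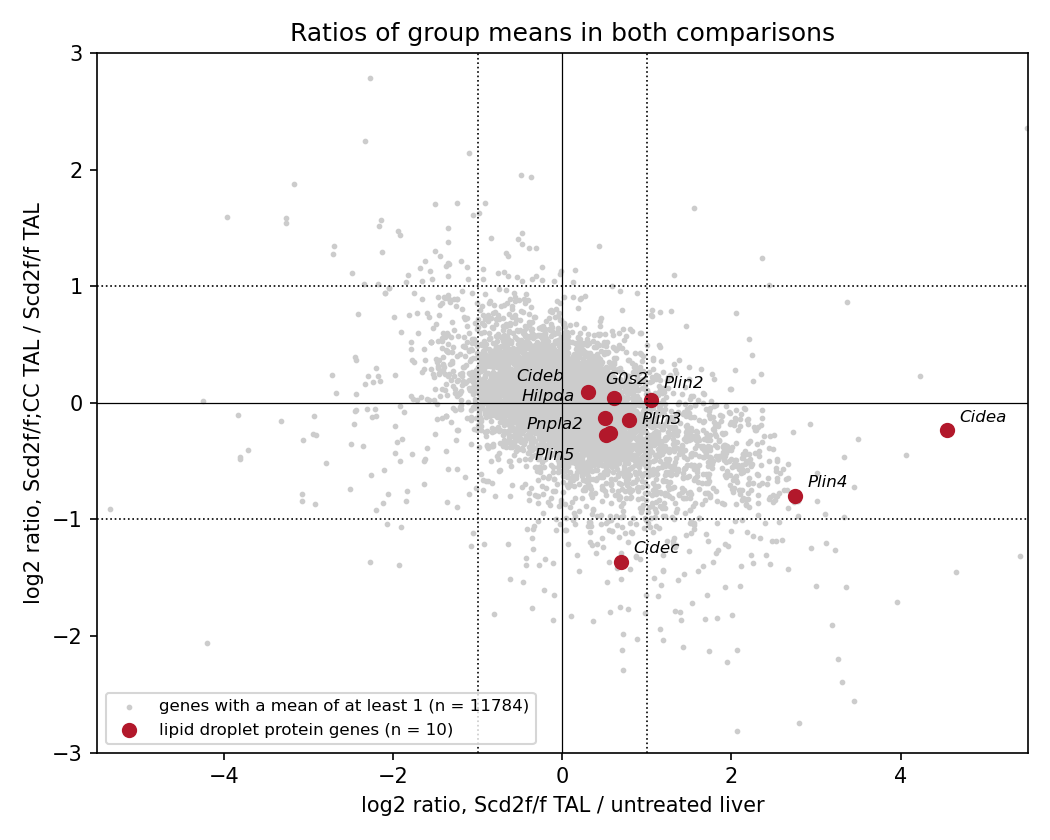
Log2 ratio of Scd2f/f TAL to untreated liver (x axis) against that of Scd2f/f;CC to Scd2f/f TAL (y axis) for the 10 lipid droplet genes (red) and 11784 genes averaging at least 1 over the groups (grey, 22 outside the axes); dotted lines mark 2-fold, and both axes share the Scd2f/f TAL mean. All red points are right of 0, Cidea at 4.55 and Plin4 at 2.75 farthest, and Cidec is below the lower dotted line at -1.36; Cidea and Hilpda are drawn although their mean is under 1.

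Pnpla2 and its protein inhibitors form the lipolytic set. Pnpla2, which maps to chromosome 7 (plus strand) from 141455198 to 141460743, had means of 20.0 in untreated liver, 29.6 in TAL of Scd2f/f mice and 24.7 in TAL of Scd2f/f;CC mice. G0s2, whose product binds the lipase and blocks it, maps to chromosome 1 (minus strand) from 193272161 to 193273217 and had means of 27.4, 41.8 and 42.9. Hilpda, which encodes a second, hypoxia-inducible inhibitor of the same lipase, maps to chromosome 6 (plus strand) from 29272488 to 29275446 and had means of 0.63, 0.891 and 0.815.

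The enzyme and its inhibitors had similar ratios of Scd2f/f TAL to untreated liver, 1.48 for Pnpla2, 1.53 for G0s2 and 1.41 for Hilpda. Between 16.5% and 20.0% of all genes had a ratio as high as these. For Scd2f/f;CC to Scd2f/f TAL the ratios were 0.834 for Pnpla2, 1.03 for G0s2 and 0.915 for Hilpda. Hilpda was low in every group, and 25.1% of all genes had a lower mean than Hilpda in untreated liver.

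The levels of different genes were compared per kilobase of exon, since the normalized counts are not divided by length. Plin2 had the highest level per kilobase in every group, 37.0 in untreated liver, 76.6 in TAL of Scd2f/f mice and 77.7 in TAL of Scd2f/f;CC mice. G0s2 was next with 31.5, 48.0 and 49.3, and Cideb the third with 29.3, 36.0 and 38.4, although Cideb exceeded G0s2 in untreated liver, 36.0 against 31.5, per kilobase of the longest transcript. These were followed at a distance by Pnpla2 with 6.62, 9.80 and 8.18. The lowest levels per kilobase were those of Cidea in untreated liver (0.0488) and of Hilpda in Scd2f/f TAL (0.808) and Scd2f/f;CC TAL (0.739). Neighbours among Pnpla2, Plin5, Cidec and Plin3 in untreated liver differed by small steps, from 6.62 to 4.07 per kilobase, and without a spread between mice their order is uncertain.

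Summed over the 10 genes, the level per kilobase was 119 in untreated liver, 198 in TAL of Scd2f/f mice and 193 in TAL of Scd2f/f;CC mice. Plin2 held 31.0%, 38.6% and 40.3% of these sums. Cidec, by contrast, held 3.99% in untreated liver, 3.89% in TAL of Scd2f/f mice and 1.55% in TAL of Scd2f/f;CC mice. The share of G0s2 was 26.3%, 24.2% and 25.5%.

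**Figure D3:**
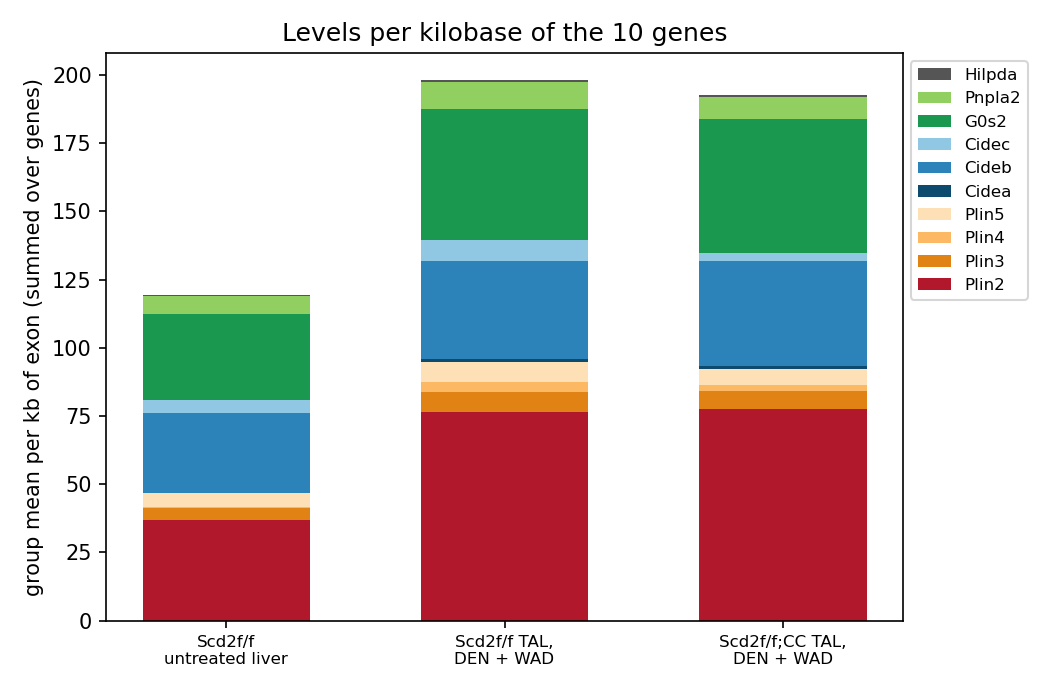
Group means per kilobase of exon, stacked over the 10 lipid droplet genes in each group. The bars reach 119, 198 and 193, and the Plin2 segment at the base grows from 37.0 in untreated liver to 76.6 and 77.7 in the treated groups.

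In the third comparison, Scd2f/f;CC TAL against untreated liver, both genotype and regimen differed, and it shares its groups with the comparisons above. Plin2, Plin4 and Cidea were at least 2-fold higher, 3 of 10 genes against 6.41% of all genes, and 0 were at least 2-fold lower, against 4.64%. Without Cidea and Hilpda, 2 of 8 were at least 2-fold higher, Plin2 and Plin4. Of genes averaging at least 1 over the groups, 4.03% had a ratio as high as that of Plin2 and 0.569% as high as that of Plin4. The share of such genes past 2-fold was not counted here. At least 1.5-fold apart in either direction were 6 of the 10, Cidec being the lower one, against 25.7% of all genes, and at least 4-fold apart was 1, Cidea, against 2.11%. The ratio was 2.10 for Plin2, 1.56 for Plin3, 3.87 for Plin4 and 1.18 for Plin5. It was 1.57 for G0s2, 1.24 for Pnpla2 and 1.29 for Hilpda. The median log2 ratio was 0.52 over the 10 genes and 0.05 over all genes.

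Other genes of droplet biology were read from a list of 22, of which 21 were found and Plin1 was not analysed here. In Scd2f/f TAL against untreated liver, 1 of the 21 was at least 2-fold higher, where 9.37% of all genes were, and 0 were at least 2-fold lower, where 4.69% were, and the median log2 ratio was 0.10. The gene past 2-fold was Hsd17b11, a droplet-associated dehydrogenase, with means of 65.3 and 137. Its liver-enriched relative Hsd17b13 had means of 101 and 170, and Lipa, the lysosomal lipase that degrades engulfed droplets, 83.4 and 164. Abhd5, the coactivator of the Pnpla2 lipase, had means of 21.9 and 16.8, and Lipe, which encodes hormone-sensitive lipase, 6.11 and 4.75. Dgat2, which makes triglyceride at the droplet surface, had means of 156 and 115, and Acsl3, an acyl-CoA synthetase of nascent droplets, 16.0 and 8.56.

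None of the 21 genes was 2-fold apart between Scd2f/f;CC and Scd2f/f TAL, where 1.82% of all genes were higher and 4.07% lower by this limit, and their median log2 ratio was -0.05. The lowest of these ratios was that of Pnpla3, -0.65 on the log2 scale, from means of 0.18 and 0.115. Hsd17b13 had a mean of 128 in Scd2f/f;CC TAL against 170 in Scd2f/f TAL. Dgat2 had 145 against 115, and Bscl2, which encodes the droplet assembly protein seipin, 13.2 against 12.6.

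PPAR receptors are lipid-activated transcription factors, and Plin2, Plin4, Plin5, Cidea, Cidec, G0s2 and Hilpda are known targets of theirs. From a list of 19 PPAR regulators and targets, 9 were at least 2-fold higher in Scd2f/f TAL than in untreated liver, against 9.37% of all genes, and 0 were at least 2-fold lower, against 4.69%. The median log2 ratio of the list was 0.62, against 0.04 over all genes. Pparg, the receptor that drives droplet genes in fat and in fatty liver, had means of 4.01 in untreated liver, 9.28 in TAL of Scd2f/f mice and 7.17 in TAL of Scd2f/f;CC mice. Ppara, the main form in hepatocytes, had means of 79.0, 80.7 and 104. Cyp4a14, a fatty acid hydroxylase, had means of 32.9, 158 and 137, and Cd36, a fatty acid transporter, had 23.7, 138 and 88.5.

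Between Scd2f/f;CC and Scd2f/f TAL, 1 of the 19 was at least 2-fold lower, against 4.07% of all genes, and 0 were at least 2-fold higher, against 1.82%, with a median log2 ratio of 0.09. The gene past 2-fold was Fgf21, a fasting hormone of the liver, with means of 0.167 in untreated liver, 4.19 in TAL of Scd2f/f mice and 1.53 in TAL of Scd2f/f;CC mice. Of 10 hypoxia targets listed beside Hilpda, 9 were found and Car9 was not analysed here. In Scd2f/f TAL against untreated liver, 0 of the 9 were at least 2-fold higher, against 9.37% of all genes, and 1 was at least 2-fold lower, against 4.69%. This was Ankrd37 with means of 0.539 and 0.242, and the median log2 ratio of the 9 was 0.10. None of the 9 was 2-fold apart between Scd2f/f;CC and Scd2f/f TAL, with a median log2 ratio of -0.06.

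**Figure D4:**
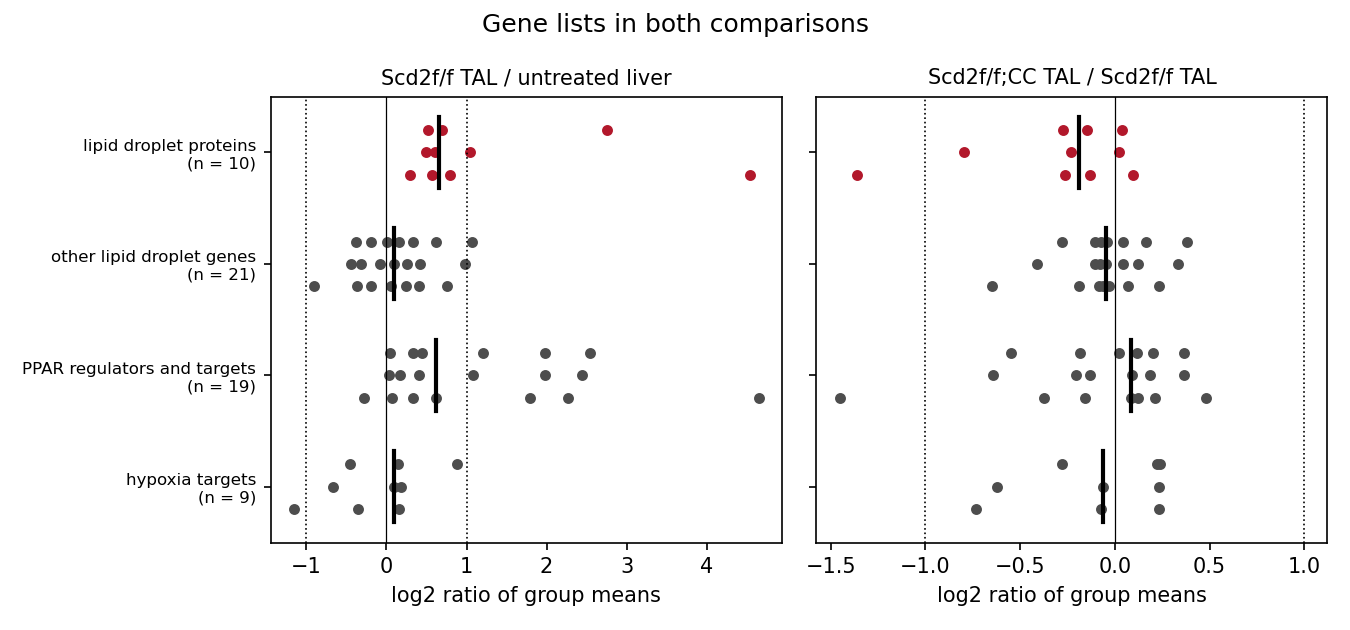
Log2 ratios of group means for the 10 lipid droplet genes (red) and the genes of 3 lists (grey) in 2 comparisons; each point is a gene, the black bar is the median and dotted lines mark 2-fold. The medians are 0.65, 0.10, 0.62 and 0.10 from top to bottom on the left and -0.19, -0.05, 0.09 and -0.06 on the right.

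Cell type markers were read beside these values, because in bulk tissue fewer cells of a type and less RNA per cell cannot be told apart. Of all genes, 9.37% were at least 2-fold higher and 4.69% at least 2-fold lower in Scd2f/f TAL than in untreated liver. In Scd2f/f;CC against Scd2f/f TAL, these shares were 1.82% and 4.07%. Hepatocyte markers such as Alb and Hnf4a were abundant in every group, and their sum over 6 genes, most of it Alb, was 30960 in untreated liver, 28110 in TAL of Scd2f/f mice and 31758 in TAL of Scd2f/f;CC mice. Of these 6 genes, 5 had a lower mean in Scd2f/f TAL than in untreated liver, and 1, Tat, was at least 2-fold lower, with means of 499 and 181, while 0 were 2-fold apart between Scd2f/f;CC and Scd2f/f TAL. All 6 macrophage markers were at least 2-fold higher in Scd2f/f TAL than in untreated liver, with sums of 35.2 and 114. Of the 6, 3 were at least 2-fold lower in Scd2f/f;CC than in Scd2f/f TAL, Trem2, Gpnmb and Itgax. The macrophage sum was 97.3 in Scd2f/f;CC TAL, and most of each sum was Clec4f, with means of 27.3, 71.2 and 71.7. Of 8 stellate cell markers, 2, Col1a1 and Col1a2, were at least 2-fold higher in Scd2f/f TAL than in untreated liver. In Scd2f/f;CC against Scd2f/f TAL, 4 were at least 2-fold lower. The stellate sums were 125 in untreated liver, 183 in TAL of Scd2f/f mice and 123 in TAL of Scd2f/f;CC mice. Reln was the largest part of each, with means of 73.0, 89.2 and 71.6. Of 5 cholangiocyte markers, 4 were at least 2-fold lower in Scd2f/f;CC than in Scd2f/f TAL. Their sums were 58.7, 53.1 and 19.1, most of it Spp1, with means of 52.3, 45.1 and 14.8. The 4 endothelial markers summed to 77.6, 95.7 and 100.1, most of it Stab2 and Kdr. Of these 4, 1 was at least 2-fold higher in Scd2f/f TAL than in untreated liver, Lyve1, with means of 2.6, 6.6 and 3.44 in untreated liver and in TAL of Scd2f/f and Scd2f/f;CC mice, and 0 were 2-fold apart between the genotypes. None of these lists was at 0 in a group, and their part in the values of Cidec and Plin4 was not tested.

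For the adipocyte list, Cfd, known as adipsin, was the 1 gene of 5 that was found, with means of 0.688, 12.9 and 15.1. Adipoq, Lep, Retn and Plin1 were not analysed here, nor was Ucp1, which is listed with Cidea for brown adipocytes. Muscle markers set untreated liver apart. Ckm, Acta1 and Myh4, which encode a creatine kinase, an actin and a myosin of skeletal muscle, had means of 5.33, 10.1 and 11.5 in untreated liver, against 0.147 or less in either treated group. Plin4 and Plin5 are also expressed in skeletal muscle, and the part of muscle RNA in their untreated means was not tested.

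**Figure D5:**
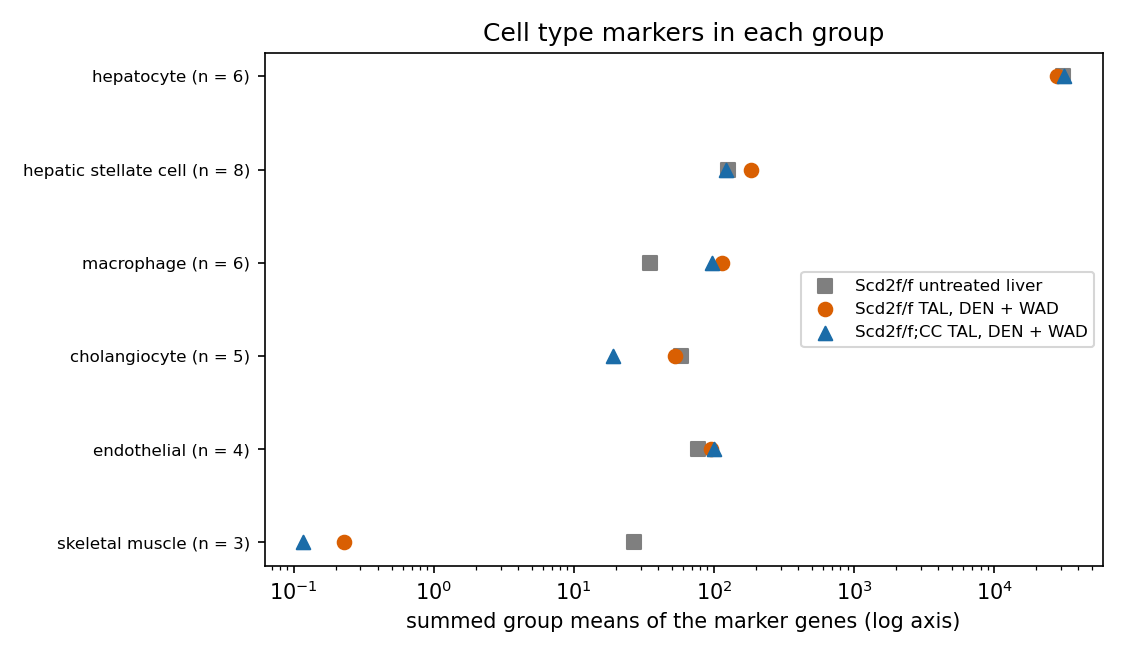
Summed group means of marker genes (log axis) for 6 cell types in untreated Scd2f/f liver (squares), Scd2f/f TAL (circles) and Scd2f/f;CC TAL (triangles). The hepatocyte sums lie between 28110 and 31758, the macrophage sum is lowest in untreated liver at 35.2, and the skeletal muscle sum is 26.9 in untreated liver against 0.228 and 0.116 in the treated groups.

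The genes most like Cidea, Plin4 and Cidec, which had the largest ratios among the 10, were sought by the distance between pairs of log2 ratios, over 3 group means, among 6016 or 6017 genes that reached 10 in a group. Nearest to Cidea were Marco, a macrophage scavenger receptor, at a distance of 0.52, and Cfd, at 0.56, followed by Themis, at 1.05. No gene of this pool lay within 0.25 of Cidea. The highest mean of Cidea was 1.27, so genes at its own level were left out of the search, and this absence says nothing about them. Nearest to Plin4 was Saa2, an acute phase protein gene, at 0.10, with means of 8.95, 56.4 and 33.5. It was followed by the leukocyte genes Plek, at 0.25, and Itgb2, at 0.26. Nearest to Cidec were Gm10680, at 0.15, and Serpina7, which encodes thyroxine-binding globulin, at 0.25, with means of 67.3, 93.6 and 39.8. Tln1, which encodes the adhesion protein talin, followed at 0.32. A match over 3 means is easily met, so these genes are named as a description.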

How the data were processed

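The authors sequenced polyadenylated RNA (Illumina TruSeq v2). The processing notes name STAR 2.6.1, Partek 6 and mm10, and the methods name Partek E/M quantification on a Gencode annotation, upper quartile normalization and Partek Gene Specific Analysis. The deposited signal of a group is a least-squares mean of normalized counts over its mice. The deposited table also holds 8 columns of the authors' comparisons (p-values, FDR, ratios and fold changes), which were not used, and it gives the Scd2f/f TAL mean in a second column, of which 0 values differed. The unit of that copy is listed as other, as deposited.

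Ratios of means were computed here with no pseudocount and set against a limit of 2-fold, with the share of all genes past it. No test was run: each group has 1 mean, and the depth is unknown. Lengths are those of merged exons in GENCODE M21 on GRCm38, to which 16169 genes were matched. The table's stop was 1 base past the end in M21 for 91.8% of these, so ends are given 1 base lower. The genes named are the 10 members, Scd2, Col1a1, genes of the lists, and the 3 genes nearest in ratio to each of 3 members. Neighbouring or overlapping genes and the promoter motifs were chosen after values were seen. Members and lists were chosen with earlier results of these data known. The labels of the untreated mice repeat the regimen's text but give the treatment as untreated, which was followed. Alternatives were other fold limits, pseudocounts of 0.1 and 1, a filter on low means, centring on the median and another gene length. Counting steps were tested on simulated data. The software was Python 3.11.15, NumPy 2.4.6, pandas 2.3.3 and Matplotlib 3.10.9.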

Additional observations from a re-analysis of the deposited data

How the results depend on the processing

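With a fold limit of 1.5, the lipid droplet genes past the limit numbered 6 instead of 3 in Scd2f/f TAL against untreated liver, 2 instead of 1 in Scd2f/f;CC against Scd2f/f TAL and 6 instead of 3 in Scd2f/f;CC TAL against untreated liver, where 28.5%, 15.5% and 25.7% of all genes passed it. With a limit of 4, they numbered 2, 0 and 1, and 3.65%, 0.853% and 2.11% of all genes passed it. With pseudocounts of 0.1 and 1 and centring of the ratios on their median, these counts kept their value, except for 2 instead of 3 in Scd2f/f;CC TAL against untreated liver with a pseudocount of 1. A filter on a mean of at least 1 in the higher group left them as they were, but Cidea passed it through the treated groups alone. With a filter on the mean over the groups, chosen after seeing the data, Cidea and Hilpda dropped out and the counts were 2, 1 and 2 of 8. Of all genes passing this filter, 6.40% were at least 2-fold higher in the first comparison. In the second, 1.54% were at least 2-fold lower, and for the third the share was not counted. The median log2 ratios of the 10 genes stayed between 0.61 and 0.69, between -0.23 and -0.13 and between 0.47 and 0.64 in the same order of comparisons. No result reversed. The log2 ratios of Cidea and Hilpda, both low, shrank with a pseudocount of 1, that of Hilpda from 0.50 to 0.21 in Scd2f/f TAL against untreated liver. Hsd17b11 was within 2-fold in Scd2f/f;CC TAL against untreated liver once ratios were centred. With the length of the longest transcript instead of merged exons, 6 of the 10 genes kept their place in the order per kilobase in untreated liver, and all 10 did in both treated groups. No paired analysis was possible because the values used are means of groups, and for the same reason leaving out each replicate in turn was not run. The muscle markers in untreated liver touch both comparisons that use that group.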
